A study of Mus musculus with 12 samples.

Results

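The AP-1 family genes described here are Fos, Fosb, Fosl2, Jun, Junb, Jund, Atf3, Maff, Batf and Batf2. They were chosen by symbol, and all 10 were found among the 21851 genes of the deposited tables. They were followed through 12 libraries of RNA from cells washed out of the peritoneal cavity of C57BL/6J mice. The mice were wild type or lactoferrin knockout and had received PBS or LPS, the endotoxin of Gram-negative bacteria, by intraperitoneal injection. The 4 groups, each with 3 libraries, were wild type with PBS, wild type with LPS, knockout with PBS and knockout with LPS. The PBS groups are the controls of the LPS groups, and all 12 libraries share strain and route of injection. The question the design poses is how these cells respond to LPS and whether the response differs without lactoferrin, an iron-binding protein of secretions and of neutrophil granules. No cell sorting is named, so each library is a mixture of peritoneal cells. The labels used here give no dose, time after injection, age, sex or construction of the knockout. Nothing there says that the 3 libraries of a group came from separate mice, so p-values measure only the spread between libraries.

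AP-1 is a dimer of basic leucine zipper proteins that binds DNA at a short palindrome. JUN proteins pair with one another or with FOS proteins, and FOS proteins need a JUN partner. ATF3 and BATF proteins join JUN proteins in dimers with other DNA preferences, and MAFF, a small MAF protein without an activation domain of its own, belongs to a neighbouring branch. In macrophages, Toll-like receptor signals reach the family through MAP kinases. Fos, Fosb, Jun, Junb and Atf3 are classical early response genes, whose transcripts appear and decay quickly after a stimulus, and handling of cells can also induce them.

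In the GENCODE M21 annotation of the mouse build GRCm38, all 10 are protein-coding genes. Fos lies at chr12:85473890-85477273 on the plus strand, and Batf lies on the same chromosome at chr12:85686669-85709087, also on the plus strand. Junb at chr8:84974484-84978718 (minus strand) and Jund at chr8:70698949-70700616 (plus strand) share a chromosome as well. Fosb lies at chr7:19302696-19310051 (minus), Jun at chr4:95049034-95052222 (minus) and Fosl2 at chr5:32135801-32157842 (plus). Atf3 lies at chr1:191170296-191218039 (minus), Maff at chr15:79346621-79359076 (plus) and Batf2 at chr19:6140983-6172476 (plus).

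RefSeq promoter windows of build GRCm38.p6 were matched by symbol for 9 of the 10 genes, all but Batf2, and the 250 bases before each start site were searched. RefSeq starts and GENCODE gene starts can differ. The Jund window, chr8:70697489-70697738, ends before the annotated gene and does not adjoin it. The windows of Fosl2 and Atf3, and some of those of Maff, lie inside the annotated gene. The windows of 4 genes are shown, because Fos and Fosb carried the deepest falls under LPS, Batf a large rise and Jun no called change. Each is written 5′ to 3′ on the gene's own strand up to the start of the annotated GENCODE gene. Capitals mark every motif match in the window. The windows are chr12:85473640-85473889 (plus strand), chr7:19310052-19310295 (minus strand), chr4:95052223-95052472 (minus strand) and chr12:85686470-85686668 (plus strand).
Fos: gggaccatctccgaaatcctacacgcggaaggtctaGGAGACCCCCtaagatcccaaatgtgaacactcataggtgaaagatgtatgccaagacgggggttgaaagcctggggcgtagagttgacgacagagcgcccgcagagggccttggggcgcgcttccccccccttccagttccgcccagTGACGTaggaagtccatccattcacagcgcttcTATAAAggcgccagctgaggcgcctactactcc
Fosb: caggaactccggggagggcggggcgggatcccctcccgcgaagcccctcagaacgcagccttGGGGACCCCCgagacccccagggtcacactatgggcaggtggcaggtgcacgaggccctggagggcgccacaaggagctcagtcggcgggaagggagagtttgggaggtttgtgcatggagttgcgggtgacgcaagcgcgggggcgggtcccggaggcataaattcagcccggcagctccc
Jun: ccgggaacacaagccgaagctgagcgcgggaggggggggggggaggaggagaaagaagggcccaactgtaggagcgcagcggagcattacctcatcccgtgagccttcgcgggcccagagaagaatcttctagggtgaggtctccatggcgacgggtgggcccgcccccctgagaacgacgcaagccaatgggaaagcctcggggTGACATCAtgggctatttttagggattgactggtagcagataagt
Batf: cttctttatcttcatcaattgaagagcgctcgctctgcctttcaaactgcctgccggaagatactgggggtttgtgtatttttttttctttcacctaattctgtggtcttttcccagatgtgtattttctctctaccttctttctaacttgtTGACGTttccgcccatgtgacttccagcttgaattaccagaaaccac
The searched motifs were the AP-1 site TGANTCA, the longer TGACNTCA, the CREB core TGACGT, the CArG box of serum response factor and the NF-kB site, all on both strands, and TATAAA on the gene's strand. TGACGT is also contained in those matches of TGACNTCA whose variable base is G. Positions are counted back from the RefSeq start site. In the Fos window TGACGT stood at -66 to -61, TATAAA at -33 to -28 and an NF-kB match at -214 to -205. The Fosb window held an NF-kB match at -188 to -179. The Jun window held TGACATCA, a match of TGACNTCA, at -45 to -38, and the Batf window held TGACGT at -98 to -93. Over the 9 members, TGACGT matched in 4 members, against 6.47% of all 32851 windows, and the NF-kB site also in 4, against 3.90%. TGACNTCA matched in 2 members, against 7.49% of all windows. TATAAA matched in Fos alone among the 9, against 7.59% of all windows. TGANTCA and the CArG box matched in 0 of the 9, against 6.75% and 1.47% of all windows. Sites outside the 250 bases were not searched, so a motif without a match may still lie further from the start. Maff has 3 windows in the table and counts as a match if any of them matched. These matches are descriptions of letters in a window and do not show that a factor binds there.

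Values were taken as FPKM, fragment counts divided by transcript length and by library total. The unit is inferred, and levels can be compared between genes only if it holds. They summed to between 343874 and 388129 per library, and between 13921 and 14574 genes were above 0. The tables carry no read totals, so the depth behind each value is unknown and no counting interval can be given. Ltf, the lactoferrin gene, ranged from 1.16 to 1.89 FPKM in wild-type PBS libraries, from 0.176 to 1.33 in wild type with LPS, from 0.183 to 0.258 in knockout PBS libraries and from 0.0699 to 0.117 in knockout with LPS. It was lower in the knockout by 0.73 (mean difference of log2(FPKM + 1) -0.73, p = 0.005 by an exact two-sided permutation of genotype within treatment, the smallest p that is possible). In wild-type PBS replicate 3 the rank correlation with the other libraries of its group was 0.934 and 0.949, against 0.973 or more for every other pair within a group. Summed markers of erythroid cells reached 2226 FPKM in wild-type LPS replicate 2 and 1886 in knockout LPS replicate 1, against 4.46 to 329.6 in the others. The macrophage, monocyte, B cell and neutrophil markers of a peritoneal wash were present in every group, with none at 0 in all libraries of a group. Single libraries did reach 0. Ly6g had a median of 0 and a maximum of 0.348 FPKM in wild type with LPS, and Camp a minimum of 0 in the knockout with PBS.

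The size of the family's transcript pool overlapped between treatments, while the shares of the Fos and Batf genes in it did not. The summed level of the 10 genes was 581 ± 182 FPKM (SD, n = 3) in wild type with PBS, 509 ± 25.4 with LPS, 517 ± 76.8 in knockout with PBS and 588 ± 39.8 with LPS, and these ranges overlapped between PBS and LPS in both genotypes. Junb was the most abundant member in all 12 libraries, with 31.5 to 42.5% of the pool. Jund came second in all 6 PBS libraries, with 20.4 to 29.1%. In knockout libraries with LPS, Batf held second place in all 3, with 16.2 to 18.8%, and Jund ranked between 3 and 5. In wild type with LPS, Batf and Jund shared ranks 2 and 3. The Batf genes together made up 4.26 ± 0.295% of the pool in wild type with PBS and 22.9 ± 2.37% with LPS, and 5.32 ± 1.44% and 23.1 ± 2.86% in the knockout. The Fos genes went the other way, from 15.6 ± 3.01% to 4.94 ± 0.587% in wild type and from 12.0 ± 0.791% to 6.99 ± 1.29% in the knockout. In neither genotype did the PBS and LPS libraries overlap in these shares. Shares of a pool move together by construction, so they are given without a test.

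**Figure D1:**
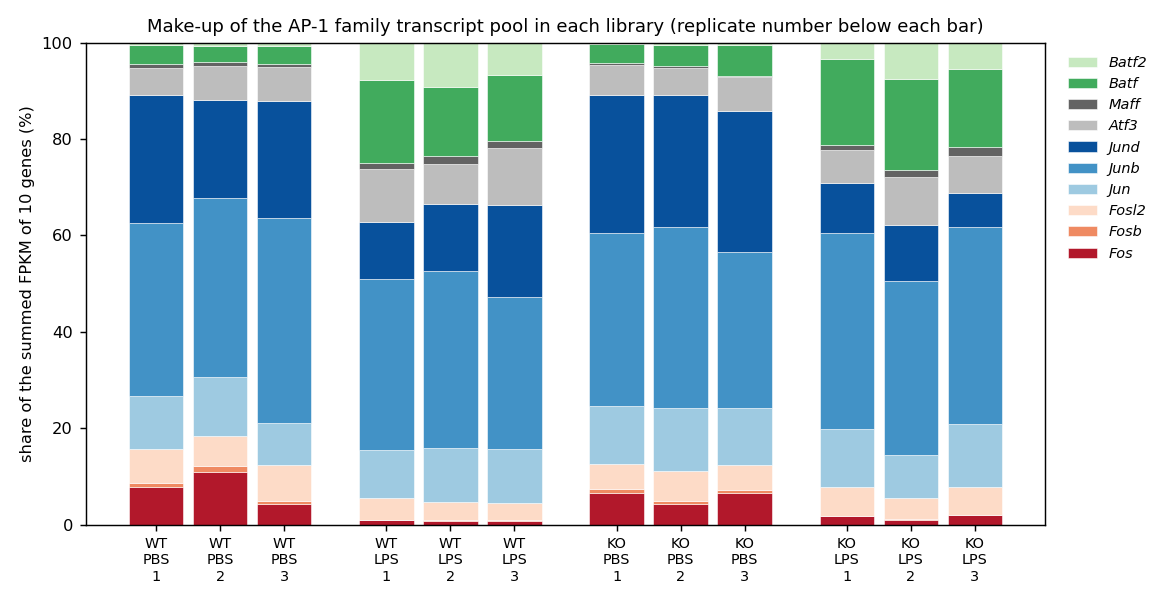
Share of each gene in the summed FPKM of the 10 AP-1 family genes (percent, vertical axis), one stacked bar per library, grouped by genotype and treatment. Junb takes the largest share in all 12 libraries, and the Batf genes grow from 4.26% and 5.32% of the pool with PBS to 22.9% and 23.1% with LPS (group means, wild type and knockout).

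In wild type, 2 of the 10 genes passed the test as higher with LPS, against 24.8% of all 9841 genes tested, and 4 as lower, against 37.4%. In the knockout 3 were higher, against 19.9% of all genes, and 3 lower, against 33.3%. The test was limma on log2(FPKM + 1), with the 12 libraries in one model and Benjamini-Hochberg adjustment over all tested genes, and a call means an adjusted p under 0.05. All 10 genes passed the filter of a mean of 1 FPKM. The median log2 fold change of the 10 was -0.20 in wild type and 0.24 in the knockout, beside -0.11 and -0.12 over all tested genes. Scaling the libraries by the median of ratios moved the medians of all genes to -0.0040 and -0.0013 and so added about 0.1 to a log2 fold change. Under that scaling 3054 genes were higher and 3109 lower in wild type, in place of 2443 and 3680, and 2659 were higher and 2585 lower in the knockout, in place of 1958 and 3277. In a mixture of cells, fewer cells of a type and less RNA per cell cannot be told apart.

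**Figure D2:**
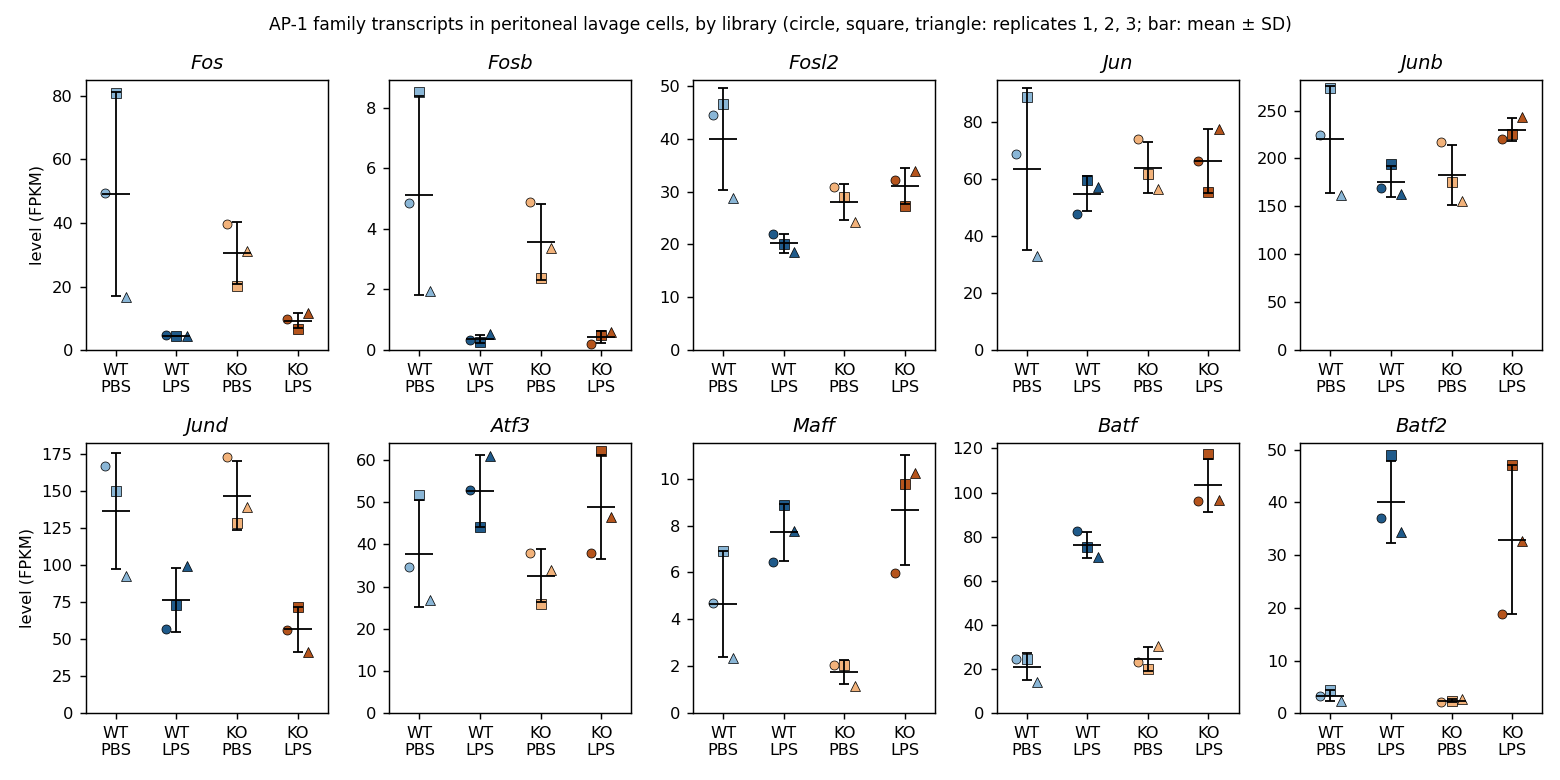
FPKM of each AP-1 family gene (vertical axes, separate scale per gene) in the 12 libraries, with points for libraries and lines with bars for the group mean and SD (n = 3). Fos and Fosb sit lower and Batf and Batf2 higher in every LPS library than in any PBS library of the same genotype, while Jun overlaps between treatments in both genotypes.

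Fos and Fosb, the FOS proteins of the early response with an activation domain, fell furthest. Fos stood at 49.5, 81.0 and 16.7 FPKM in the 3 wild-type PBS libraries and at 4.59, 4.40 and 4.42 with LPS. In the knockout Fos stood at 39.8, 20.3 and 31.3 with PBS and at 9.75, 6.59 and 11.5 with LPS. Every LPS library lay below every PBS library, the wild-type LPS libraries lay within a narrow band, and the wild-type PBS libraries were widely spread, with replicate 3 lowest. The mean fell 11.0-fold in wild type (log2 fold change -2.93 ± 0.44 SE, limma adjusted p = 0.00018) and 3.28-fold in the knockout (-1.59 ± 0.44, adjusted p = 0.0104). Here and below, folds are ratios of mean FPKM, whereas log2 fold changes are differences of mean log2(FPKM + 1), so the 2 measures need not match. Fosb stood at 4.84, 8.50 and 1.96 FPKM in wild type with PBS and at 0.335, 0.274 and 0.521 with LPS. In the knockout Fosb stood at 4.88, 2.39 and 3.38 with PBS and at 0.210, 0.482 and 0.611 with LPS. Its LPS libraries were all below 1 FPKM and all below the PBS libraries. Its log2 fold change was -2.00 ± 0.34 in wild type (limma adjusted p = 0.000404) and -1.64 ± 0.34 in the knockout (adjusted p = 0.00198). At such low levels the added 1 FPKM shrinks the change, and with 0.1 FPKM in its place the values were -3.25 and -2.80.

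Neutrophil markers fell beside Fos and Fosb in wild type, while in the knockout their sums overlapped between treatments. The summed level of the 8 neutrophil markers (such as S100a8, S100a9 and Cxcr2) was 1951 to 3258 FPKM in wild type with PBS, 152 to 279 with LPS, 1194 to 3018 in the knockout with PBS and 711 to 2673 with LPS. These sums were mostly carried by S100a8 and S100a9, with knockout means of 762 and 812 FPKM with PBS and 801 and 800 with LPS. Cxcr2 did not overlap in the knockout, at 32.7 to 69.2 FPKM with PBS and 1.87 to 16.1 with LPS. Knockout means of Mmp8, Ly6g, Csf3r and Retnlg were also lower with LPS. Of the 7 that could be tested, 6 were called lower with LPS in wild type and 1 in the knockout. Camp was under the filter and its means went the other way. They were 0.270 FPKM with PBS and 0.817 with LPS in wild type, and 0.191 and 2.07 in the knockout. The large peritoneal macrophage markers moved too, with 6 of 8 lower in wild type and 7 of 8 in the knockout, and all 5 monocyte markers were lower in wild type and 4 of 5 in the knockout. The part of these cells in the falls of Fos and Fosb was not tested. In the knockout, PBS replicate 1 was highest in the neutrophil marker sum (3018 FPKM) and in Fos (39.8). LPS replicate 1 had a larger marker sum (2673) than PBS replicates 2 and 3 (1194 and 1244) and less Fos.

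**Figure D3:**
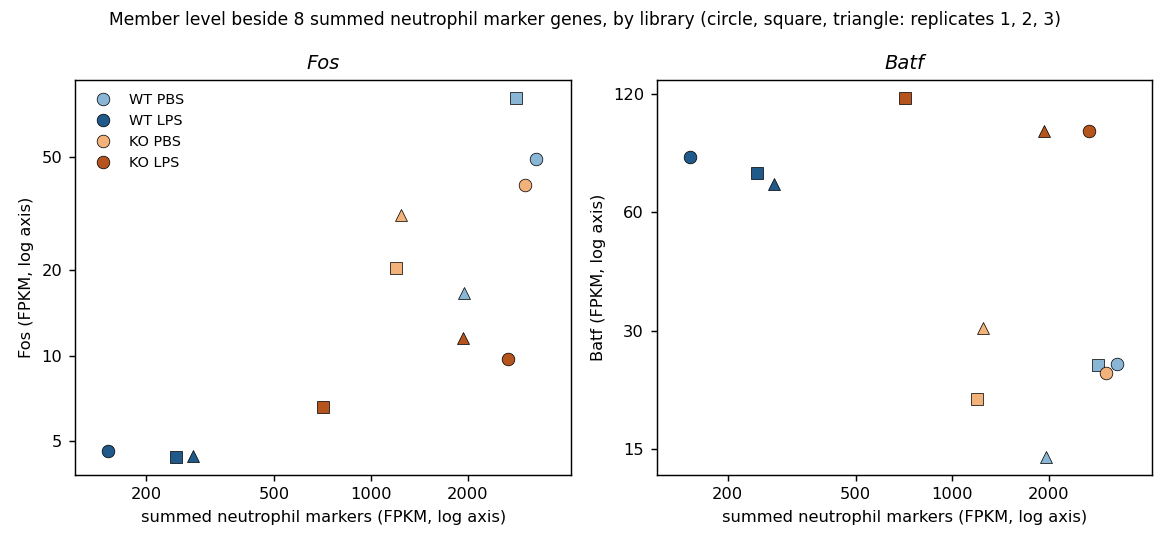
FPKM of Fos (left) and Batf (right) against the summed FPKM of 8 neutrophil markers, both axes logarithmic, one symbol per library with colour for the group and shape for the replicate. Most of each sum comes from S100a8 and S100a9. The wild-type LPS libraries lie at 152 to 279 FPKM of markers and the knockout LPS libraries at 711 to 2673, while Fos stays at 11.5 FPKM or less and Batf at 70.8 or more in both.

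Fosl2, which encodes a FOS protein without the strong activation domain of FOS and FOSB, was called lower with LPS in wild type and not in the knockout. It stood at 44.5, 46.5 and 28.8 FPKM in wild type with PBS and at 22.0, 20.1 and 18.5 with LPS. In the knockout Fosl2 stood at 30.9, 29.0 and 24.3 with PBS and at 32.3, 27.2 and 33.9 with LPS. The wild-type groups did not overlap and the knockout groups did. The log2 fold change was -0.92 ± 0.17 in wild type (limma adjusted p = 0.000743) and 0.15 ± 0.17 in the knockout (adjusted p = 0.495, 95% interval -0.23 to 0.52). The test of the difference between these responses is given with the genotype comparisons.

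Among the Jun genes, Jund was lower with LPS and neither Jun nor Junb passed the test. Jund, whose protein is generally present in unstimulated cells, stood at 167, 150.2 and 92.6 FPKM in wild type with PBS and at 56.8, 72.9 and 99.7 with LPS. In the knockout Jund stood at 174, 129 and 139 with PBS and at 56.6, 72.1 and 41.5 with LPS. The knockout groups were apart, whereas in wild type LPS replicate 3 lay above PBS replicate 3. Jund fell by 1.38 ± 0.27 on the log2 scale in the knockout (limma adjusted p = 0.00139) and by 0.82 ± 0.27 in wild type (adjusted p = 0.0198). The wild-type call was lost when PBS replicate 1 or 2 or LPS replicate 1 or 2 was left out (adjusted p = 0.0754, 0.0588, 0.0835 and 0.0526, log2 fold changes -0.66, -0.73, -0.63 and -0.81). It was also lost without the pair of libraries richest in erythroid RNA (-0.81, adjusted p = 0.07). Jund is a gene with a single short exon, and transcripts overlapping it cannot be separated here.

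Junb, a JUN protein that activates more weakly than JUN in many settings, stood at 224, 274 and 162 FPKM in wild type with PBS and at 169.5, 194 and 163 with LPS. In the knockout Junb stood at 217, 175 and 155 with PBS and at 221, 226 and 244 with LPS. The wild-type groups overlapped, and in the knockout every LPS library was above every PBS library. The log2 fold changes were -0.29 ± 0.18 in wild type (limma adjusted p = 0.183, 95% interval -0.70 to 0.11) and 0.34 ± 0.18 in the knockout (adjusted p = 0.138, interval -0.06 to 0.75). The knockout value passed with median-of-ratios scaling (0.49, adjusted p = 0.0438) and with upper-quartile scaling (0.48, adjusted p = 0.0428). Jun, the founding JUN gene, stood at 68.8, 89.1 and 33.0 FPKM in wild type with PBS, at 47.9, 59.7 and 57.4 with LPS, at 74.1, 61.8 and 56.5 in the knockout with PBS and at 66.5, 55.4 and 77.7 with LPS. Treatments overlapped in both genotypes, with log2 fold changes of -0.10 (95% interval -0.73 to 0.53) and 0.05 (-0.58 to 0.68). Without wild-type PBS replicate 3, where both were lowest, Jun and Junb were called lower with LPS in wild type (-0.51, adjusted p = 0.0287, and -0.50, adjusted p = 0.0167).

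That library was low across the family. In wild-type PBS replicate 3 all 10 genes were the lowest of the 3 libraries, beside 40.7% of all tested genes, and 8 of the 10 were highest in replicate 2, beside 27.3%. Large peritoneal macrophage markers summed to 2334 FPKM in replicate 3 and to 1140 and 1114 in replicates 1 and 2. Neutrophil markers were lowest in replicate 3 (1951 FPKM, against 3258 and 2835). Replicate 2 had 500 FPKM of B cell markers, against 1033 and 1074 in replicates 1 and 3. Its mast cell markers summed to 292 (against 599 and 762) and its erythroid markers to 330 (against 31.0 and 31.5). The part of cell make-up in these family levels was not tested. Leaving replicate 3 out changed none of the calls of Fos, Fosb, Fosl2, Jund, Batf or Batf2 with LPS in wild type.

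Batf and Batf2 rose with LPS in both genotypes. Their proteins lack an activation domain, pair with JUN proteins and act with interferon regulatory factors, BATF in T cells, B cells and dendritic cells and BATF2 as an interferon-inducible gene of macrophages. Batf stood at 24.7, 24.5 and 14.3 FPKM in wild type with PBS and at 82.8, 75.3 and 70.8 with LPS. In the knockout Batf stood at 23.5, 20.1 and 30.6 with PBS and at 96.3, 117 and 96.6 with LPS. The lowest LPS library, at 70.8, stood far above the highest PBS library, at 30.6. The mean rose 3.60-fold in wild type (log2 fold change 1.84 ± 0.20, limma adjusted p = 2.49e-05) and 4.19-fold in the knockout (2.04 ± 0.20, adjusted p = 1.81e-05).

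Batf2 stood at 3.35, 4.35 and 2.28 FPKM in wild type with PBS and at 37.0, 48.9 and 34.4 with LPS. In the knockout Batf2 stood at 2.09, 2.38 and 2.70 with PBS and at 18.9, 47.2 and 32.7 with LPS. The treatments were far apart in both genotypes, and the knockout LPS libraries were the most spread. The mean rose 12.1-fold in wild type (3.26 ± 0.28, limma adjusted p = 4.94e-06) and 13.8-fold in the knockout (3.24 ± 0.28, adjusted p = 6.53e-06). Dendritic cell markers summed to 46.8 to 49.5 FPKM in wild type with PBS and 68.3 to 69.7 with LPS, and to 31.6 to 45.2 and 50.0 to 111 in the knockout. T cell markers went the other way, from 25.2 to 35.9 FPKM to 7.93 to 9.67 in wild type and from 11.6 to 16.7 to 5.20 to 11.1 in the knockout. The dendritic cell sums were carried by Ccr7 and Cd209a. The other 4 markers (Flt3, Zbtb46, Clec9a and Xcr1) were under the filter, and their means were lower with LPS in both genotypes, as for Clec9a at 0.691 FPKM with PBS and 0.0111 with LPS in wild type. B cell markers summed to 500.4 to 1074 FPKM with PBS and 228 to 327 with LPS in wild type, and to 631 to 868 and 138 to 239 in the knockout. The part of these cells in the rise of Batf and Batf2 was not tested.

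Maff passed the test in the knockout, and Atf3 in neither genotype. Atf3, a stress-induced factor often described as a brake on Toll-like receptor responses, stood at 34.7, 51.7 and 26.9 FPKM in wild type with PBS and at 52.7, 44.1 and 60.9 with LPS. In the knockout Atf3 stood at 38.0, 25.8 and 33.8 with PBS and at 37.9, 62.1 and 46.5 with LPS. The groups overlapped by a single pair of libraries in each genotype. Its log2 fold changes of 0.50 ± 0.25 and 0.56 ± 0.25 did not pass the test (limma adjusted p = 0.0929 and 0.0743). With median-of-ratios scaling both did (0.63, adjusted p = 0.0492, and 0.70, adjusted p = 0.036), and so they did with upper-quartile scaling (0.64, adjusted p = 0.0422, and 0.69, adjusted p = 0.0349). Leaving out wild-type PBS replicate 2 also brought both past the threshold (adjusted p = 0.0154 and 0.038). The knockout value further passed without wild-type PBS replicate 3 (adjusted p = 0.0439), without knockout LPS replicate 1 (0.0448) and in a fit of the knockout libraries alone (0.0474).

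Maff stood at 4.71, 6.91 and 2.36 FPKM in wild type with PBS and at 6.44, 8.89 and 7.78 with LPS. In the knockout Maff stood at 2.05, 2.08 and 1.16 with PBS and at 5.98, 9.78 and 10.3 with LPS. The knockout treatments were apart, while in wild type PBS replicate 2 reached above LPS replicate 1. The knockout rise was 4.92-fold (log2 fold change 1.79 ± 0.29, limma adjusted p = 0.000386). The wild-type value was 0.70 ± 0.29 (adjusted p = 0.0519) and passed with median-of-ratios scaling (0.80, adjusted p = 0.0313), with upper-quartile scaling (0.81, adjusted p = 0.0286), without PBS replicate 2 (0.98, adjusted p = 0.0091) and without knockout LPS replicate 1 (0.70, adjusted p = 0.0431). It also passed with the replicate number as a block (0.70, adjusted p = 0.0382).

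**Figure D4:**
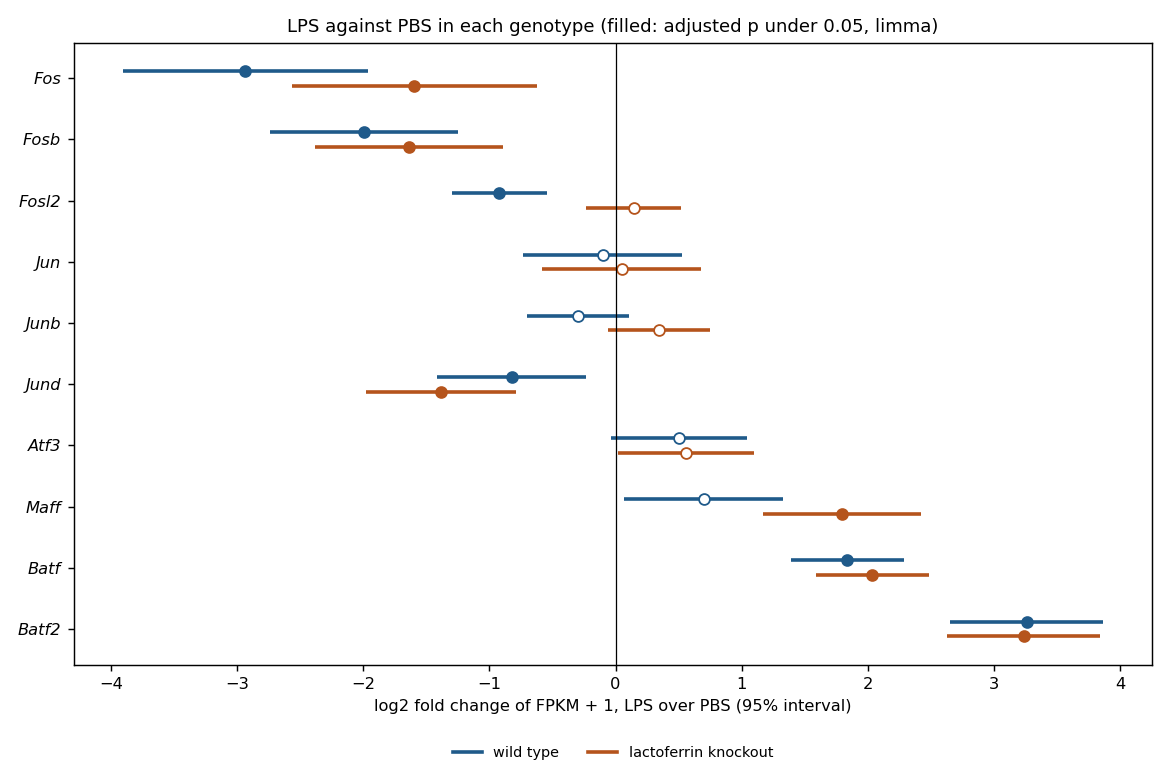
Log2 fold change of FPKM + 1 with LPS against PBS (horizontal axis, bars are 95% intervals) for each AP-1 family gene, in wild type and in knockout, with filled points for a limma adjusted p under 0.05. Fos, Fosb and Jund lie to the left of 0 and Batf and Batf2 to the right in both genotypes, all called. Fosl2 is called in wild type and Maff in the knockout. The interaction was called for neither gene (limma adjusted p = 0.194 and 0.453).

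Between genotypes, none of the 10 genes passed the test under either treatment. With PBS, 0 were called by limma and 2 had an unadjusted p under 0.05, while 0.0203% of all tested genes were called higher in the knockout, 0.0915% lower, and 9.11% passed an unadjusted 0.05. The 2 were Maff and Fosl2. Maff, 1 of the 10, was lower in every knockout PBS library than in any wild-type one, beside 7.34% of all tested genes, and 2.64-fold lower in the mean (log2 difference -0.97 ± 0.29, 95% interval -1.59 to -0.34, limma adjusted p = 0.356). Fosl2 differed by -0.47 ± 0.17 (interval -0.85 to -0.09, adjusted p = 0.455), with overlapping groups. The median over the 10 was -0.28, beside -0.02 for all tested genes.

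With LPS, 0 of the 10 were called by limma and 1 had an unadjusted p under 0.05, while of all tested genes 0% were called in either direction and 7.56% passed an unadjusted 0.05. The 1 was Fosl2, with a log2 difference of 0.60 ± 0.17 (95% interval 0.22 to 0.97, limma adjusted p = 0.475). Fosl2, Fos, Junb and Batf, 4 of the 10, were higher in every knockout LPS library than in any wild-type one, beside 5.03% of all tested genes. The log2 differences of the other 3 were 0.88 for Fos (interval -0.09 to 1.85), 0.39 for Junb (-0.01 to 0.80) and 0.43 for Batf (-0.02 to 0.88), with adjusted p of 0.683, 0.670 and 0.670. Jund went the other way (-0.42, interval -1.01 to 0.17, adjusted p = 0.728). The neutrophil marker sum was also higher in each knockout LPS library than in any wild-type one, as given above. Of its genes, Csf3r overlapped (38.9 to 52.2 FPKM in wild type with LPS, 48.3 to 79.3 in the knockout). Camp overlapped too (0.374 to 1.52 and 0.689 to 2.81), and 0 of the 7 tested markers were called by limma. The part of neutrophils in the differences of the members was not tested.

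The difference between the 2 LPS responses was tested as an interaction, for which 0 of the 10 were called by limma and 3 had an unadjusted p under 0.05. Of all tested genes 0.0406% were called with a higher response in the knockout and 0% with a lower one, and 9.61% passed an unadjusted 0.05. Fosl2 had the lowest p of the family (interaction 1.07 ± 0.24, 95% interval 0.54 to 1.60, unadjusted p = 0.000978, adjusted p = 0.194). It passed the threshold when wild-type PBS replicate 3 was left out (1.28, adjusted p = 0.0183) and in none of the other alternatives, with values from 0.95 to 1.28 over all of them. Maff gave 1.10 ± 0.41 (interval 0.21 to 1.98, adjusted p = 0.453) and Junb 0.64 ± 0.26 (0.07 to 1.21, adjusted p = 0.483). For Fos, with log2 fold changes of -2.93 in wild type and -1.59 in the knockout, the interaction was 1.34 ± 0.63 with an interval of -0.03 to 2.71 (adjusted p = 0.525). The Batf2 responses differed by -0.02 (interval -0.88 to 0.84, adjusted p = 0.988) and those of Batf by 0.20 (-0.43 to 0.83, adjusted p = 0.846), intervals that still allow differences of either sign.

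**Figure D5:**
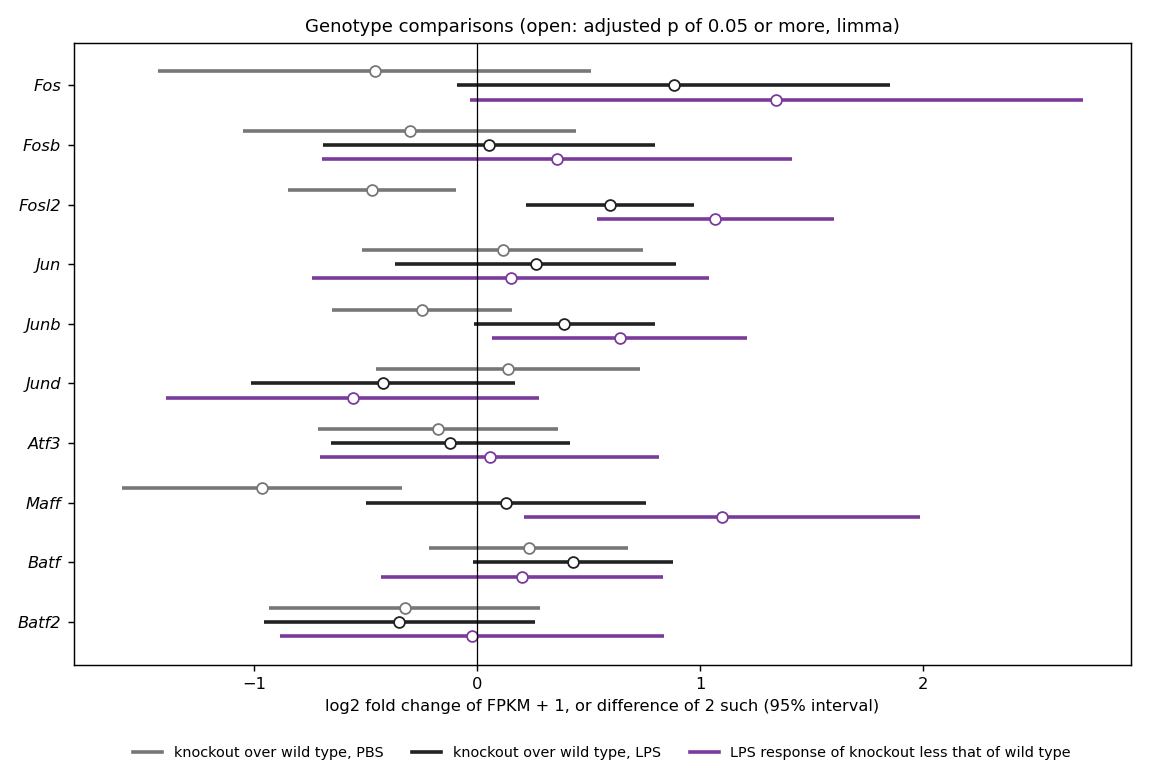
Log2 difference between knockout and wild type under PBS and under LPS, and the knockout LPS response less that of wild type (horizontal axis, bars are 95% intervals), for each AP-1 family gene. All points are open because no adjusted p was under 0.05. The intervals are not adjusted for the number of genes. Those of Fosl2 exclude 0 in all 3 comparisons, of which the last is the LPS difference less the PBS difference and so not independent.

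Genes around the family are given as counts, to be read beside the shares of all tested genes, 24.8% higher and 37.4% lower with LPS in wild type and 19.9% and 33.3% in the knockout. No list was tested against other genes. Of 14 other AP-1 and related leucine zipper genes, 3 were higher and 5 lower with LPS in wild type (median -0.09) and 4 and 4 in the knockout (-0.12). Nfe2, a partner of small MAF proteins in blood cells, had log2 fold changes of -3.24 and -2.04 in wild type and knockout. Batf3 rose by 1.36 and 1.87 on the log2 scale. Of 27 tested genes of the MAP kinase cascade, 3 were higher and 13 lower in each genotype (medians -0.18 and -0.21). Mapk3, the gene of ERK1, had log2 fold changes of -2.06 and -1.80, and Map3k1, a kinase upstream of JNK, of -1.45 and -1.42. Of 12 serum response and CREB factors, 1 was higher and 5 lower in wild type (median -0.22) and 0 and 6 in the knockout (-0.46). Of 8 genes for degradation of AP-1 proteins or for coactivators, 2 were higher and 5 lower in wild type and 1 and 4 in the knockout (medians -0.28 and -0.22), with Itch, a ubiquitin ligase of JUN proteins, at -0.73 and -0.79.

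Of 6 BATF and IRF partner genes, 5 were higher and 0 lower in wild type (median 1.21) and 5 higher and 1 lower in the knockout (1.66). Irf1 rose by 1.67 and 1.89 and Irf4, which binds composite sites with BATF, by 1.33 and 1.84 on the log2 scale. Of 17 tested textbook AP-1 targets, 6 were higher and 7 lower in wild type (median 0.09) and 10 and 6 in the knockout (1.10). The cell cycle gene Ccnd1 fell, with log2 fold changes of -3.90 and -3.74. The gelatinase gene Mmp9, itself abundant in neutrophils, had log2 fold changes of -3.53 in wild type and -2.42 in the knockout, and the cyclooxygenase gene Ptgs2 of 2.23 and 3.39.

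Of 15 other early response genes, 11 were lower with LPS and 2 higher in wild type (median -1.16, beside 37.4% of all tested genes lower), and 8 lower and 4 higher in the knockout (-0.35, beside 33.3%). Klf4 fell, with log2 fold changes of -2.62 and -3.31, and Egr2 fell too, with -2.16 and -0.83. Under PBS 3 were lower in the knockout by limma, namely Egr2 (-1.21, adjusted p = 0.0111), Csrnp1 (-1.01, adjusted p = 0.0111) and Egr1 (-0.93, adjusted p = 0.0411). The same 3 had higher LPS responses in the knockout (interactions 1.33, 1.15 and 1.59, adjusted p = 0.0446, 0.0446 and 0.0344). Each of these calls was lost in at least 4 of the alternatives, with adjusted p up to 0.353. With LPS, 0 genes of these lists were called between genotypes by limma, as for all tested genes.

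Likeness of profiles was measured as the root mean square difference of log2(FPKM + 1) over the 12 libraries, each profile centred on its mean, and given as a description. Among the 10, Jun and Junb were most alike (0.226), followed by Fosl2 and Junb (0.256), and Fos was nearest to Fosb (0.434). Over 6486 other genes, Dhrs9 (0.306), Rab44 (0.353) and Lilra6 (0.380) were nearest to Fos, and H2-Q10 (0.206) to Fosb. Fosl2 was nearest to Ifngr2 (0.139), a chain of the interferon-gamma receptor, and to Nfe2l2 (0.150), the gene of NRF2. Junb was nearest to Zfp36 (0.123), whose protein destabilises AU-rich transcripts. Atf3 was nearest to Nfkbie (0.188) and Nfkbid (0.190), inhibitor proteins of NF-kB, and Maff to Nlrp3 (0.251) and Icam1 (0.289). Batf was nearest to Zc3h12a (0.210) and Batf2 to Slamf1 (0.318). A gene with a flatter profile reaches a small difference more easily, so these values do not rank the members against each other.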

How the data were processed

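Strand use, annotation and filters: not given in the sources used here. Per the submitters' processing notes, TopHat, Cufflinks, HTSeq, DESeq and GRCm38 were named without version, role or order. The authors deposited 1 table per library, and its values were taken as FPKM because they are not whole and because Cufflinks is named. Of 21878 rows, 27 with dates for symbols were left out. Knockout libraries were taken from the characteristics and codes, although their titles name wild-type mice.

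The 9841 of 21851 genes whose mean reached 1 FPKM were tested on log2(FPKM + 1) with limma 3.58.1 (trend, robust, R 4.3.3), with one mean per group, 5 contrasts and a threshold of 0.05. The code was tested on simulated data. In each contrast up to 20 alternatives were run: 2 scalings, another pseudocount, no filter, other model settings, a replicate block, each library left out, and the erythroid-richest pair left out, the last chosen after seeing the data. The members and gene lists were chosen with earlier results of these data known. All members were named, with up to 3 called genes per list of largest change and the 3 genes nearest each member in profile.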

Additional observations from a re-analysis of the deposited data

Results flagged for a closer look

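Among the early response genes beside the AP-1 family, Egr1, Egr2 and Csrnp1 differed between genotypes in their LPS response by the limma interaction test. Egr1 was at 25.5 ± 2.36 FPKM (SD, n = 3) in wild type with PBS and 9.30 ± 0.587 with LPS, and at 13.0 ± 2.23 and 15.4 ± 2.77 in the knockout (interaction 1.59 on the log2 scale, adjusted p = 0.0344). Egr2 was at 5.49 ± 0.722 and 0.442 ± 0.0340 FPKM in wild type and at 1.81 ± 0.479 and 0.570 ± 0.110 in the knockout (1.33, adjusted p = 0.0446). Csrnp1 was at 14.8 ± 1.26 and 10.4 ± 0.646 FPKM in wild type and at 6.90 ± 0.989 and 11.6 ± 1.44 in the knockout (1.15, adjusted p = 0.0446). The interaction calls were lost in 11, 13 and 12 of 19 alternatives for Egr1, Egr2 and Csrnp1, with adjusted p up to 0.226, while their values stayed between 1.06 and 1.86. All 3 calls were lost without wild-type PBS replicate 1, any 1 of the wild-type LPS replicates, knockout PBS replicate 2 or 3, or knockout LPS replicate 1 or 3 (adjusted p 0.0515 to 0.166), and those of Egr2 and Csrnp1 also without wild-type PBS replicate 2 (0.103). The lower levels in the knockout with PBS lost their call in 16 of 20 alternatives for Egr1 and in 4 of 20 for Egr2 and for Csrnp1, the libraries among these 4 being knockout PBS replicates 2 (adjusted p = 0.112 for both) and 3 (0.0796 and 0.11).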

How the results depend on the processing

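No alternative reversed a call of the 10 genes. The LPS calls of Fos, Fosb, Batf and Batf2 held in both genotypes under all 20 alternatives, as did those of Fosl2 in wild type and of Jund and Maff in the knockout. Fos ranged from -3.56 to -2.45 in wild type and from -1.85 to -1.38 in the knockout, with the highest adjusted p at 0.0441. The alternatives that moved Jun, Junb, Jund, Atf3, Maff and Fosl2 across the threshold are given with those genes.

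Among the counts over all genes, that of the interaction moved from 4 to 8 with median-of-ratios scaling, 8 with upper-quartile scaling, 7 without trend and robust settings, 1 without a filter, 0 with the replicate block and 0 without the erythroid-richest pair of libraries. Genotype calls under PBS went from 11 to 0 in a fit of the groups compared alone, to 3 with the replicate block and to 0 without the erythroid-richest pair. Under LPS they went from 0 to 2 without a filter and to 3 in a fit of the groups compared alone. With each library left out in turn these counts ranged from 0 to 30 under PBS, from 0 to 29 under LPS and from 0 to 48 for the interaction, where the number of members called ranged from 0 to 1. The cause was not tested. Of 18 same-numbered pairs of deviations from the group means, 5 correlated above 0.1 (range -0.25 to 0.19). A library correlated best with its own number in 13 of 36 comparisons. With only 3 libraries per group, these values cannot decide whether the replicate numbers pair the libraries. The block changed no member call other than that of Maff in wild type. With 3 libraries per group and no read totals, small changes and the error of values near 0, such as Fosb with LPS, cannot be judged.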
